A study of Saccharomyces cerevisiae with 6 samples.

Results

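The box H/ACA small nucleolar RNAs (snoRNAs) of budding yeast were followed together with the genes of the 4 proteins that package them, *CBF5*, *NHP2*, *NOP10* and *GAR1*. Members were taken by name from the table of 6277 genes and not by their values, though earlier results of these data were known. They comprised 29 snoRNA genes and 4 protein genes, 33 genes in all. Ribosome-depleted total RNA from 3 strains was sequenced with 2 clones per strain, giving 6 libraries. Every strain, the control included, lacked chromosomal *RRP6* and *MTR4* (rrp6Δ mtr4Δ, BY4741/4743 background) and carried *MTR4* on both pRS416 and pRS415. The strains differed in their pRS413 plasmid, which held *RRP6* (WT), *RRP6* D238N (the exoribonuclease-inactive Rrp6 exo-) or no insert (rrp6Δ). All grew in selective medium at 30 °C to mid-log phase, so "WT" is a plasmid-complemented double deletion and not an unmodified strain. The series asks whether RNAs depend on the Rrp6 protein or on its catalytic activity, which the 3 pairwise comparisons of the strains address.

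H/ACA snoRNAs fold into a pair of hairpins that end in an H box and an ACA box, and most of them base-pair with ribosomal RNA (rRNA) to direct Cbf5, the catalytic subunit, to the uridine that is converted to pseudouridine. Nhp2, Nop10 and Gar1 complete the particle. The precursors are made by RNA polymerase II, mostly from promoters of their own and in a few cases from introns. Their 3′ ends are trimmed by the nuclear exosome, whose exoribonuclease subunits are Rrp6 and Dis3. Read counts over an annotated gene do not tell a mature snoRNA from a precursor that covers the same bases, and RNA from whole cultures does not tell a change in every cell from one in a part of the cells.

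From 34.2 M to 39.5 M reads fell on the listed genes of each library (mean 37.5 M, SD 2.08), and the deposited unit is the scaled count, the read count divided by 1 size factor per library. *RRP6* itself, the check of the labels, had scaled counts of 19503 and 21626 in the WT libraries, 18538 and 21173 in those of Rrp6 exo-, and 4.17 and 8.33 in those of rrp6Δ. The 29 snoRNA genes together took 2.86% and 3.02% of the reads in the WT libraries, 2.47% and 3.02% in those of Rrp6 exo-, and 2.81% in both of rrp6Δ. In these genes the Rrp6 exo- libraries stood further apart from each other than those of the other strains. The median absolute log2 difference between replicates was 0.36 in Rrp6 exo- (all genes 0.18), 0.26 in WT (0.16) and 0.13 in rrp6Δ (0.14). In Rrp6 exo- 25 of the 29 snoRNA genes were higher in replicate 2 than in replicate 1, with a median difference of 0.32 on the log2 scale. In WT it was 16 of 29 (0.044) and in rrp6Δ 21 of 29 (0.059). The share of all genes higher in replicate 2 is not given here. The part this difference plays in the comparisons of Rrp6 exo- was not tested beyond the values without each library that are given beside them.

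All 33 members were matched to the RefSeq annotation of assembly R64, the assembly that sacCer3 names. That annotation gives 22 of the snoRNA genes 31 guided positions in large-subunit (25S) rRNA, 10 of them 14 positions in small-subunit (18S) rRNA, and snR81 a further 2 positions in U2 spliceosomal RNA. The sequences shown are those of 3 of the 4 snoRNAs that limma with the replicate block described below called higher in both mutants, those of the 4 with the largest fold changes in each mutant (snR189, snR161 and snR36), the 2 encoded in introns, which were called lower in both (snR44 and snR191), and the 2 that DESeq2 called between the mutants (snR11 and snR46). They are printed 5′ to 3′ in the sense of the RNA, as DNA letters of R64 from RefSeq, with the ACA box, or the ATA or AAA in its place, in capitals.
snR189: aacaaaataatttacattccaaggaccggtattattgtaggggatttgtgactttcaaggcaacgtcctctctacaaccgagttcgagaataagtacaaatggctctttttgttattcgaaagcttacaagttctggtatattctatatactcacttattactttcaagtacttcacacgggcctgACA
snR161: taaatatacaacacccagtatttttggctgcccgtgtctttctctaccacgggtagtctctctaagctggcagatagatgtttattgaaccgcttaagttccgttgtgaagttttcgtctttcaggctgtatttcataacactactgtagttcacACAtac
snR36: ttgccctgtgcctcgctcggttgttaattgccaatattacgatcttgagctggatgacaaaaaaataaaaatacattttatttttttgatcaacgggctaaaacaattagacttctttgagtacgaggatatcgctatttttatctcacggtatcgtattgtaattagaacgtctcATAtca
snR44: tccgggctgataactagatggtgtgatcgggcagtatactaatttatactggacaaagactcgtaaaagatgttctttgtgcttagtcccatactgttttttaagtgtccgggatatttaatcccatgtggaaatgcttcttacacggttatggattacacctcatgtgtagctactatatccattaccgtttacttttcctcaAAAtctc
snR191: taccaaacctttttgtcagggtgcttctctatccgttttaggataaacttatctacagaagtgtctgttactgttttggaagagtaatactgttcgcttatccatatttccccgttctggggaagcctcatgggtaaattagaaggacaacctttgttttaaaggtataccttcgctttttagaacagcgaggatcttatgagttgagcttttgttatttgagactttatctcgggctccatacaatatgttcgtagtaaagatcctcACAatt
snR11: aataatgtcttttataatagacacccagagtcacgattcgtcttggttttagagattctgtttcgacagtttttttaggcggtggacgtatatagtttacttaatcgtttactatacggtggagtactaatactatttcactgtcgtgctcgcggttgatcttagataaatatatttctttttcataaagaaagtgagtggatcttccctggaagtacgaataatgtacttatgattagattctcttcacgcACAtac
snR46: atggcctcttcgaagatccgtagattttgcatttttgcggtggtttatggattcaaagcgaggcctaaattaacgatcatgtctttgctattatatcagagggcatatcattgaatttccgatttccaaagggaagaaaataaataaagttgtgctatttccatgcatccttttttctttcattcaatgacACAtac

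In R64 these genes lie at III:178610-178798 (snR189, minus strand), II:307185-307345 (snR161, minus), XV:680685-680866 (snR36, minus), XII:856710-856920 (snR44, plus), XIV:721938-722211 (snR191, minus), XIII:652275-652532 (snR11, plus) and VII:545370-545566 (snR46, plus). On the strand of the gene, ACA was found within the last 10 bases of 18 of the 29 annotated genes (62.1%), ATA in its place in 6 and AAA in 3, while snR5 and snR85 had none of the 3. The same letters lay in the last 10 bases of 7 of 31 listed C/D snoRNA genes (22.6%) and of 8.83% of all 6477 annotated genes. In snR189 the annotated gene ends on the box itself, whereas the others shown carry 3 or 4 bases after it. A missing match says only that these letters are not in this window.

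In scaled counts per kb of gene, the snoRNAs spanned more than 3 orders of magnitude. The genes run from 161 bases (snR161) to 1004 (snR86), and the part of gene length in these levels was not tested. Per kb of gene, the mean scaled count in WT ran from 810253 for snR30, which acts in 18S rRNA processing, through 479365 for snR83 and 365149 for snR37 to 259 for snR36 and 212 for snR80. snR30 alone held 40.3% and 43.5% of all H/ACA reads in the WT libraries. snR30 was the highest and snR80 the lowest member per kb in every library, and snR36 was the next lowest, as the plot of levels shows.

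**Figure D1:**
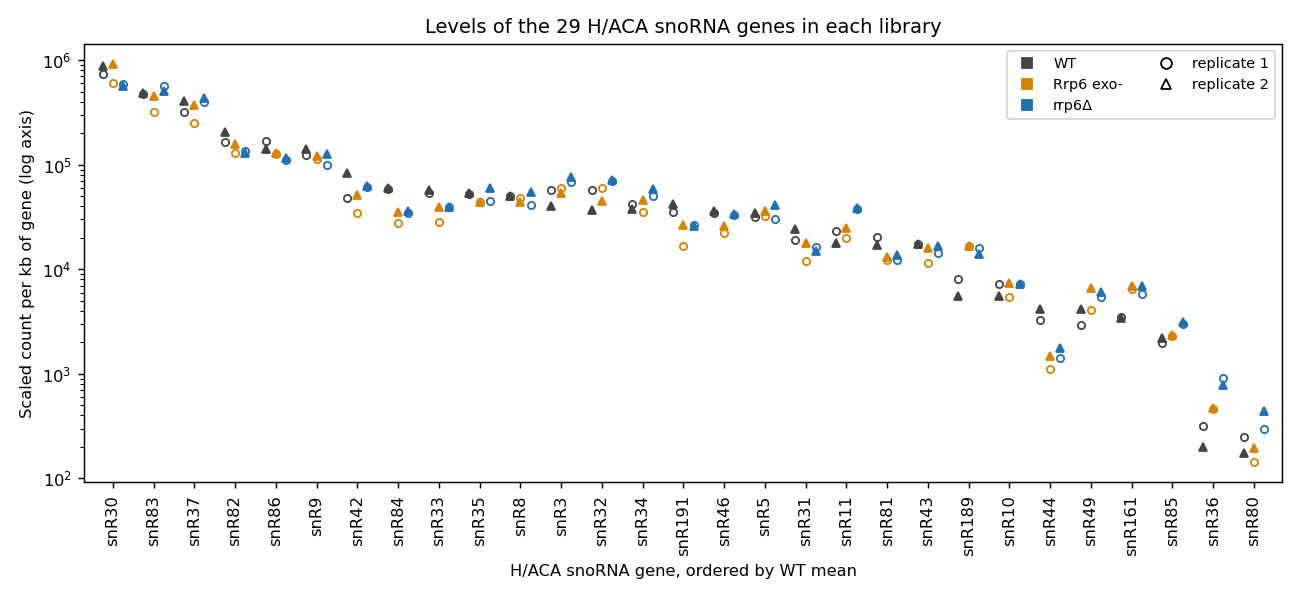
Scaled count per kb of gene (log axis) of the 29 H/ACA snoRNA genes in each of the 6 libraries, ordered by the WT mean. Colours stand for strains, and circles and triangles for replicates 1 and 2. snR30 is highest, and snR36 and snR80 are lowest in every library.

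In rrp6Δ, which has no Rrp6, H/ACA snoRNAs differed from WT in both directions: the guides snR36, snR189, snR11 and snR161 were highest over WT and the intron-encoded snR44 was lowest under it. The limma calls rest on the pairing of the clones by replicate number. Without a replicate term, limma gave 0 of the 29 an adjusted p under 0.05 in rrp6Δ against WT, where 0.175% of all genes passed ("called" below). At an unadjusted p under 0.05 there were 16 of 29, where 16.6% of all genes were. With the replicate number as a block, which compares the strains within each number, limma called 14, of which 8 were higher and 6 lower (11.5% of all genes called, 5.43% higher and 6.04% lower). The higher ones were snR11, snR161, snR189, snR3, snR32, snR36, snR49 and snR85, and the lower ones snR191, snR33, snR44, snR81, snR82 and snR84. Across the 29 genes the median log2 fold change was -0.03 (all genes 0.005), and 14 were above 0.

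edgeR called 0 without the block (0.175% of all genes) and 15 with it (11.4% of all genes), which were the same 14 and snR34. DESeq2, which has no replicate term, called 10 (8.19% of the genes with an adjusted p). The 3 fits that made calls shared 5 higher snoRNAs (snR11, snR161, snR189, snR36 and snR85) and 4 lower ones (snR44, snR81, snR82 and snR84). The rrp6Δ libraries lay entirely above those of WT for 11 snoRNAs and entirely below for 11, where 25.1% and 24.9% of all genes did so. Blocked fits with 1 library left out have 1 residual degree of freedom, and the calls did not hold without either rrp6Δ library. Without either of them 0 of 29 were called with the block (0.303% and 0.191% of all genes), while 19 or 16 kept an unadjusted p under 0.05. Without WT replicate 1 or 2 the count was 9 or 7 (2.79% and 2.09% of all genes), and without Rrp6 exo- replicate 1 or 2 it was 21 or 20 (34.8% and 34.7% of all genes).

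**Figure D2:**
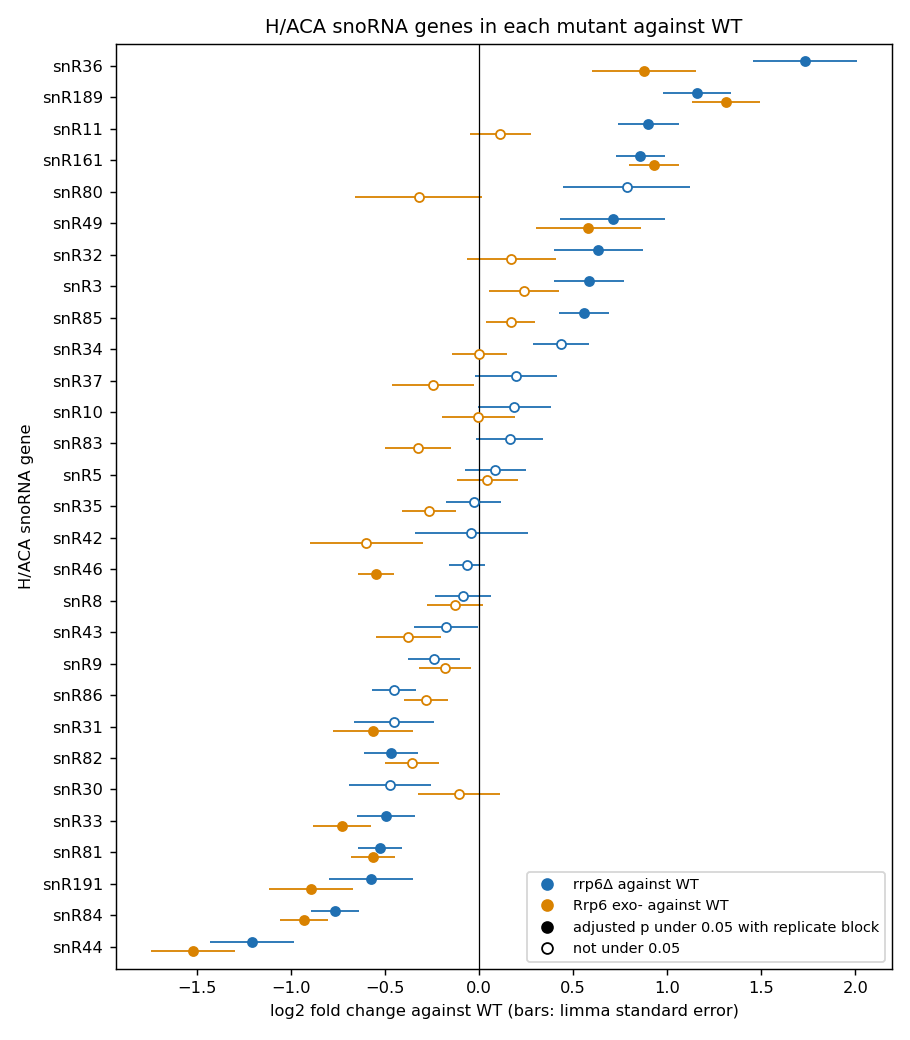
Log2 fold change of each H/ACA snoRNA gene in rrp6Δ and in Rrp6 exo- against WT, with the standard error of the limma fit without the block as bars. Filled points had an adjusted p under 0.05 in the fit with the replicate block. snR36 and snR189 are at the top, and snR44 is lowest in both mutants.

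The largest rise in rrp6Δ was that of snR36, which guides modification of 18S rRNA position 1187 and is among the scarcest members. snR36 had scaled counts of 58 and 36.4 in the WT libraries, 84.5 and 86.2 in those of Rrp6 exo-, and 168 and 144 in those of rrp6Δ. Both rrp6Δ libraries were above both Rrp6 exo- libraries, which were above both WT libraries. The change against WT was 3.33-fold in rrp6Δ (log2 fold change 1.73 ± 0.28 SE, limma adjusted p = 0.1 without and 0.0082 with the block) and 1.84-fold in Rrp6 exo- (0.88 ± 0.28, 0.21 without and 0.045 with the block). Neither DESeq2 (0.15) nor edgeR with the block (0.051) called it in Rrp6 exo-.

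snR189, a guide for 25S position 2735 and 18S position 466, was the snoRNA with the largest rise in Rrp6 exo-. Its scaled counts were 1516 and 1055 in the WT libraries, 3134 and 3151 in those of Rrp6 exo-, and 2999 and 2658 in those of rrp6Δ. All 4 mutant libraries were above both WT libraries, and the rise was 2.23-fold in rrp6Δ (1.16 ± 0.18 SE on the log2 scale) and 2.48-fold in Rrp6 exo- (1.31 ± 0.18). The limma adjusted p was 0.1 and 0.068 without the block and 0.0039 and 0.0016 with it. snR161, which guides 18S positions 632 and 766, was also higher in both mutants, with scaled counts of 568 and 555 in the WT libraries, 1037 and 1105 in those of Rrp6 exo-, and 932 and 1112 in those of rrp6Δ. Every mutant library was above both WT libraries, with 1.81-fold in rrp6Δ (0.86 ± 0.13, blocked limma adjusted p = 0.0072) and 1.91-fold in Rrp6 exo- (0.93 ± 0.13, 0.0036). Without the block the limma adjusted p of snR161 was 0.1 and 0.069.

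**Figure D3:**
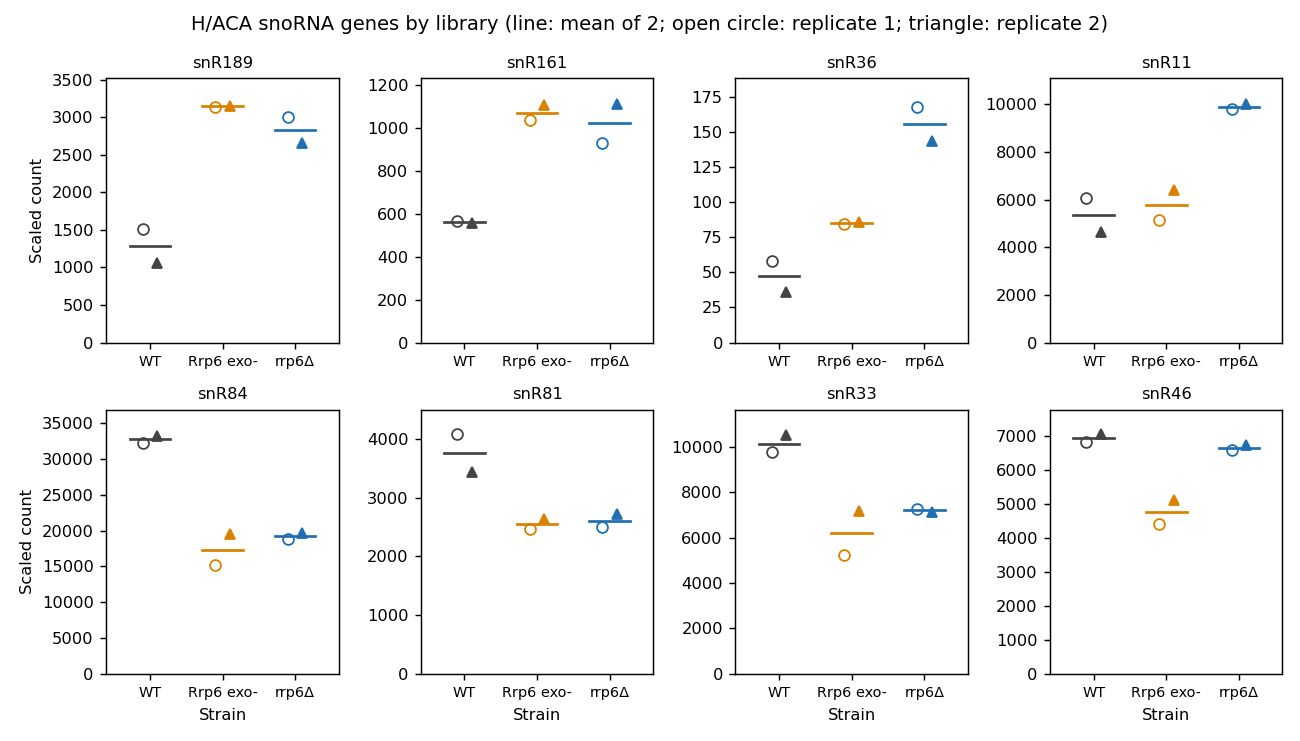
Scaled counts of 8 H/ACA snoRNA genes in each library, with a line at the mean of the 2 libraries of a strain. snR189 and snR161 are higher in both mutants, snR11 is higher in rrp6Δ, snR84, snR81 and snR33 are lower in both mutants, and snR46 is lower in Rrp6 exo-.

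A further group was higher in rrp6Δ with the block. snR11, the guide for 25S position 2416, was at 6054 and 4644 in the WT libraries, 5144 and 6410.3 in those of Rrp6 exo-, and 9795 and 9992 in those of rrp6Δ. Only the rrp6Δ libraries of snR11 stood apart, at 1.87-fold over WT (0.90 ± 0.16 SE, blocked limma adjusted p = 0.015, 0.12 without the block), whereas WT and Rrp6 exo- overlapped. snR85, annotated to guide 18S position 1181 by prediction, was at 338 and 373 in the WT libraries, 392 and 406 in those of Rrp6 exo-, and 513 and 534 in those of rrp6Δ. The libraries of the 3 strains did not overlap, and rrp6Δ was 1.47-fold over WT (0.56 ± 0.13, 0.026 with and 0.16 without the block). snR49, with 4 annotated rRNA positions, was at 483 and 684 in the WT libraries, 673 and 1100.1 in those of Rrp6 exo-, and 895 and 993 in those of rrp6Δ. Both rrp6Δ libraries of snR49 were above both WT libraries, while those of Rrp6 exo- overlapped with WT. Its blocked limma adjusted p was 0.023 in rrp6Δ (0.71 ± 0.28) and 0.036 in Rrp6 exo- (0.58 ± 0.28), against 0.29 and 0.36 without the block and 0.16 and 0.25 with DESeq2.

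The abundant 25S guides snR3 and snR32 were the remaining members called higher in rrp6Δ. snR3 was at 11249 and 7741 in the WT libraries, 11664 and 10404 in those of Rrp6 exo-, and 13169 and 14839 in those of rrp6Δ. snR32 was at 10769 and 6895 in the WT libraries, 11201 and 8428 in those of Rrp6 exo-, and 13189.9 and 13585 in those of rrp6Δ. In both genes rrp6Δ lay above WT, but WT replicate 1 was close to Rrp6 exo- replicate 1 and the WT clones differed widely. The log2 fold change was 0.58 ± 0.19 SE for snR3 (blocked limma adjusted p = 0.043, 0.22 without the block) and 0.64 ± 0.23 for snR32 (0.034, 0.27 without the block), and DESeq2 called neither (0.069 and 0.13).

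Among the snoRNAs from their own promoters, snR84 showed the largest fall. snR84, the guide for 25S position 2266, had scaled counts of 32198 and 33278 in the WT libraries, 15212 and 19460.4 in those of Rrp6 exo-, and 18846 and 19715 in those of rrp6Δ. Each mutant library was lower than each WT library, and the level in WT was 1.7 times that in rrp6Δ (-0.76 ± 0.13 SE) and 1.9 times that in Rrp6 exo- (-0.93 ± 0.13). The blocked limma adjusted p was 0.0076 and 0.0027, and 0.11 and 0.068 without the block. snR81, which serves 25S position 1052 and U2 positions 42 and 93, was at 4090.2 and 3447 in the WT libraries, 2459.6 and 2632 in those of Rrp6 exo-, and 2495 and 2731 in those of rrp6Δ. Again no library overlapped with WT, with log2 fold changes of -0.52 ± 0.12 in rrp6Δ and -0.56 ± 0.12 in Rrp6 exo- (blocked limma adjusted p = 0.023 and 0.017, 0.15 and 0.13 without the block). snR33, the guide for 25S position 1042, was at 9775 and 10531 in the WT libraries, 5235 and 7184 in those of Rrp6 exo-, and 7283 and 7155 in those of rrp6Δ. Its mutant libraries were all below WT, at -0.49 ± 0.15 and -0.73 ± 0.15 (blocked limma adjusted p = 0.034 and 0.011, 0.21 and 0.13 without the block). For rrp6Δ DESeq2 did not call snR33 (0.06).

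snR82, with 3 guided positions in 25S rRNA, was called lower in rrp6Δ alone. snR82 had scaled counts of 44427 and 54745 in the WT libraries, 34953 and 42592 in those of Rrp6 exo-, and 36608 and 34697 in those of rrp6Δ. All 4 mutant libraries were below both WT libraries, with -0.47 ± 0.14 SE in rrp6Δ on the log2 scale (blocked limma adjusted p = 0.04, 0.21 without the block), and the blocked limma adjusted p in Rrp6 exo- was 0.076. A call in 1 mutant only does not show that the mutants differ. snR86, the guide for 25S position 2314, was at 171166 and 142760.2 in the WT libraries, 126074 and 131228 in those of Rrp6 exo-, and 112485 and 116244 in those of rrp6Δ. DESeq2 gave it an adjusted p of 0.0048 in rrp6Δ (-0.45 ± 0.12), whereas limma gave 0.17 without and 0.073 with the block.

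In Rrp6 exo-, in which the protein is present but inactive, more H/ACA snoRNAs lay below WT than above. limma without the block called 0 of 29 (0.112% of all genes), with 11 at an unadjusted p under 0.05 (17.0% of all genes). With the block it called 11, 4 higher and 7 lower (12.7% of all genes, 5.7% higher and 7.04% lower). The higher ones were snR161, snR189, snR36 and snR49. The lower ones were snR191, snR31, snR33, snR44, snR46, snR81 and snR84. Across the 29 the median log2 fold change was -0.24 (all genes 0.011), with 10 above 0, and it was -0.35 in the pair of replicates 1 and -0.12 in the pair of replicates 2.

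edgeR called 0 without (0.0956% of all genes) and 10 with the block (12.7%), and DESeq2 called 8 (8.45% of the genes with an adjusted p). The 3 fits shared 2 higher snoRNAs (snR161 and snR189) and 6 lower ones (snR191, snR33, snR44, snR46, snR81 and snR84). The libraries lay entirely above WT for 4 snoRNAs and entirely below for 14, where 21.7% and 23.5% of all genes did so. With the block, the count was 8 or 9 without WT replicate 1 or 2 (3.41% and 2.92% of all genes), 19 without either Rrp6 exo- library (20.9% and 27.6% of all genes), and 11 without either rrp6Δ library (6.21% and 6.32%). Both mutants were set against the same WT libraries, so their shared calls are not independent. With the block 4 snoRNAs were higher in both (snR161, snR189, snR36 and snR49) and 5 lower in both (snR191, snR33, snR44, snR81 and snR84). The shares of all genes called in both mutants, or by all 3 fits in a comparison with WT, are not given here.

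snR46, the guide for 25S position 2865, was called lower in Rrp6 exo- alone. snR46 had scaled counts of 6812 and 7060.0 in the WT libraries, 4401 and 5108 in those of Rrp6 exo-, and 6566 and 6718 in those of rrp6Δ. The Rrp6 exo- libraries were below all 4 others. The log2 fold change against WT was -0.55 ± 0.10 SE in Rrp6 exo- (limma adjusted p = 0.098 without and 0.0065 with the block), and in rrp6Δ the blocked limma adjusted p was 0.6. snR31, which guides 18S position 999, was at 4331 and 5444 in the WT libraries, 2689.9 and 4015 in those of Rrp6 exo-, and 3705 and 3401 in those of rrp6Δ. Its Rrp6 exo- libraries were below WT and overlapped with rrp6Δ, and the blocked limma adjusted p was 0.044 in Rrp6 exo- (-0.56 ± 0.21, 0.26 without the block) and 0.081 in rrp6Δ.

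Set directly against each other, the mutants gave calls for snR11 and snR46 in DESeq2 and for no H/ACA snoRNA in limma. limma called 0 of 29 between rrp6Δ and Rrp6 exo- without the block (0.0159% of all genes) and 0 with it (0.0319%), and 7 of 29 had an unadjusted p under 0.05 without the block (5.46% of all genes). edgeR called 0 without (0.0159%) and with (0.0319%) the block. DESeq2 called 2 (0.717% of all genes), snR11 and snR46, both higher in rrp6Δ. The median log2 fold change was 0.24 (all genes 0.003), 23 of 29 were above 0, and the rrp6Δ libraries lay entirely above those of Rrp6 exo- for 12 snoRNAs and entirely below for 3, where 17.3% and 15.9% of all genes did so.

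snR11 was 1.72-fold higher in rrp6Δ than in Rrp6 exo- (0.78 ± 0.16 SE on the log2 scale, limma adjusted p = 0.88 without and 0.11 with the block, DESeq2 0.0079). snR46 was 1.4-fold higher (0.49 ± 0.10, limma 0.88 and 0.11, DESeq2 0.006). The 2 largest differences, called by none of these fits, were those of snR80 (1.10 ± 0.34, limma adjusted p = 0.88 without and 0.2 with the block), a guide for 25S position 776 and 18S position 759, and of snR36 (0.85 ± 0.28, 0.88 and 0.17). snR80, the scarcest member, was at 42.2 and 30.2 in the WT libraries, 24.3 and 33.2 in those of Rrp6 exo-, and 51.1 and 75.9 in those of rrp6Δ. Both rrp6Δ libraries of snR80 were above the other 4. These comparisons share the Rrp6 exo- libraries, which stood apart from each other in the snoRNA genes. Without Rrp6 exo- replicate 1 the median log2 fold change was 0.007, and without replicate 2 it was 0.41. With the block, the limma calls between the mutants changed with the library left out. Without the block and with 1 library left out, the log2 fold change ran from 0.63 to 0.94 for snR11 and from 0.38 to 0.59 for snR46.

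The intron-encoded snoRNAs snR44 and snR191 fell in both mutants with the block. Of their hosts, *RPS22B* was called lower in Rrp6 exo- with the block and *NOG2* in neither mutant. snR44, which guides 25S position 1056 and 18S position 106, lies in the intron of *RPS22B* (XII:856575-857057 in R64), a ribosomal protein gene of the small subunit. snR191, which guides 25S positions 2258 and 2260, lies in the intron of *NOG2* (XIV:721771-722302), a GTPase gene of large-subunit assembly. Neither shares bases with an annotated exon of its host.

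snR44 showed the largest fall of all 29 in both mutants, with scaled counts of 693 and 874 in the WT libraries, 233 and 315 in those of Rrp6 exo-, and 302 and 376 in those of rrp6Δ. All 4 mutant libraries of snR44 were below both WT libraries. Its mean was 784 ± 128 (SD, n = 2) in WT, 339 ± 52.2 in rrp6Δ and 274 ± 57.7 in Rrp6 exo-. The level in WT was 2.31 times that in rrp6Δ (-1.21 ± 0.22 SE on the log2 scale) and 2.87 times that in Rrp6 exo- (-1.52 ± 0.22). The limma adjusted p in rrp6Δ was 0.13 without and 0.0026 with the block, and in Rrp6 exo- it was 0.071 and 0.00089. *RPS22B* was at 5471 and 4012 in the WT libraries, 3400.0 and 3134 in those of Rrp6 exo-, and 3864 and 3762 in those of rrp6Δ, with -0.52 ± 0.16 in Rrp6 exo- (blocked limma adjusted p = 0.021, 0.2 without the block) and -0.30 ± 0.16 in rrp6Δ (0.095 with the block). For every 100 reads on *RPS22B* the WT libraries held 12.7 and 21.8 on snR44, those of Rrp6 exo- 6.86 and 10.04, and those of rrp6Δ 7.82 and 9.995, so the mutants were below WT in this ratio too.

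snR191 had scaled counts of 9708 and 11648 in the WT libraries, 4534 and 7253 in those of Rrp6 exo-, and 7212 and 7073 in those of rrp6Δ. Every mutant library was below both WT libraries, and the log2 fold change was -0.57 ± 0.22 SE in rrp6Δ and -0.89 ± 0.22 in Rrp6 exo- (blocked limma adjusted p = 0.044 and 0.013, 0.28 and 0.16 without the block). DESeq2 did not call it in rrp6Δ (0.13). *NOG2* was at 13688 and 9147 in the WT libraries, 15413 and 12503 in those of Rrp6 exo-, and 16091 and 10459 in those of rrp6Δ, and the libraries of its 3 strains overlapped (0.21 ± 0.27 in rrp6Δ and 0.31 ± 0.27 in Rrp6 exo-, blocked limma adjusted p = 0.15 and 0.061). For every 100 reads on *NOG2* the WT libraries held 70.9 and 127 on snR191, those of Rrp6 exo- 29.4 and 58.0, and those of rrp6Δ 44.8 and 67.6, so each mutant library was below both WT libraries in this ratio.

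**Figure D4:**
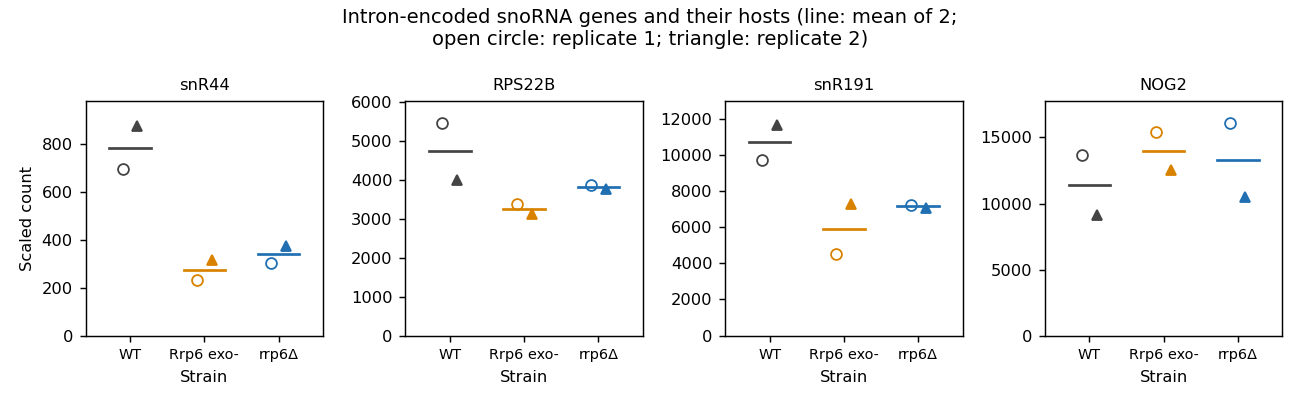
Scaled counts of the intron-encoded snR44 and snR191 and of their host genes *RPS22B* and *NOG2* in each library, with a line at the mean of the 2 libraries of a strain. Both snoRNAs are lower in all 4 mutant libraries, and *NOG2* overlaps between the strains.

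The 2 members known for rRNA processing were not called by limma, edgeR or DESeq2 on all 6 libraries, with or without the block. snR30 was at 447449 and 534577 in the WT libraries, 369127 and 558789.9 in those of Rrp6 exo-, and 360004 and 345978 in those of rrp6Δ. Both rrp6Δ libraries were below the other 4, but the Rrp6 exo- clones spanned the WT range and the log2 fold change was -0.47 ± 0.22 SE in rrp6Δ (limma adjusted p = 0.35 without and 0.21 with the block) and -0.11 ± 0.22 in Rrp6 exo- (0.86 and 0.78). Its share of the H/ACA reads was 35.9% and 34.4% in the rrp6Δ libraries, below the 42.8% and 47.6% of Rrp6 exo- and the WT values above. snR10, which also guides 25S position 2923, was at 1771 and 1372 in the WT libraries, 1327 and 1823 in those of Rrp6 exo-, and 1766 and 1784 in those of rrp6Δ. Its libraries overlapped between strains (0.19 ± 0.19 in rrp6Δ and -0.00 ± 0.19 in Rrp6 exo-, limma adjusted p = 0.69 and 1). snR10 shares 216 of its 245 bases with the reading frame YGL088W on the same strand, so reads of the 2 genes may have been split or dropped in the counting and its values are uncertain.

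The other 9 snoRNAs (snR5, snR8, snR9, snR34, snR35, snR37, snR42, snR43 and snR83), all rRNA guides, had mean scaled counts from 3248 to 143359. Their log2 fold changes ran from -0.24 (snR9) to 0.44 (snR34) in rrp6Δ and from -0.60 (snR42) to 0.04 (snR5) in Rrp6 exo-. None had an adjusted p under 0.05 in limma with the block, the lowest being 0.0504 and 0.0503. snR42 varied most between the WT clones, by 0.80 on the log2 scale.

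On all 6 libraries, limma and edgeR, with and without the block, and DESeq2 called none of the 4 core protein genes in any comparison, where limma with the block called 11.5%, 12.7% and 0.0319% of all genes. In limma without the block, only *NHP2* in rrp6Δ against Rrp6 exo- had an unadjusted p under 0.05. *CBF5*, the pseudouridine synthase, was at 21634 and 17621 in the WT libraries, 20773 and 18898 in those of Rrp6 exo-, and 19524 and 19519 in those of rrp6Δ. *NHP2*, which encodes the RNA-binding core subunit, was at 5059 and 4685 in the WT libraries, 4572 and 4874 in those of Rrp6 exo-, and 5847 and 5376 in those of rrp6Δ. *NOP10*, whose small product binds Cbf5, was at 735 and 439 in the WT libraries, 678 and 545 in those of Rrp6 exo-, and 749 and 639 in those of rrp6Δ. The libraries of WT overlapped with those of both mutants in *CBF5* and *NOP10*, and both rrp6Δ libraries of *NHP2* were above the other 4. *GAR1*, whose product also binds Cbf5, was at 582 and 514 in the WT libraries, 788 and 427 in those of Rrp6 exo-, and 553 and 488 in those of rrp6Δ. The Rrp6 exo- clones of *GAR1* enclosed those of the other strains.

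Against WT the log2 fold changes in rrp6Δ were -0.00 ± 0.12 SE for *CBF5*, 0.20 ± 0.09 for *NHP2*, 0.28 ± 0.27 for *NOP10* and -0.07 ± 0.29 for *GAR1*. In Rrp6 exo- they were 0.02 ± 0.12, -0.04 ± 0.09, 0.10 ± 0.27 and 0.08 ± 0.29 in the same order. The lowest limma adjusted p of these 8 values was 0.33 without and 0.12 with the block, both for *NHP2* in rrp6Δ. In blocked fits with 1 library left out, calls appeared only without an Rrp6 exo- library. Without replicate 1 or 2 of that strain *NHP2* (0.20, limma adjusted p = 0.015 and 0.014) and *NOP10* (0.28, 0.027 and 0.026) were called higher in rrp6Δ than in WT, where 34.8% and 34.7% of all genes were called. Without replicate 2 *GAR1* was called higher in Rrp6 exo- than in WT (0.44, limma adjusted p = 0.014, 27.6% of all genes), and *NHP2* was called higher (0.35, 0.0035) and *GAR1* lower (-0.51, 0.0083) in rrp6Δ than in Rrp6 exo- (9.67% of all genes).

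**Figure D5:**
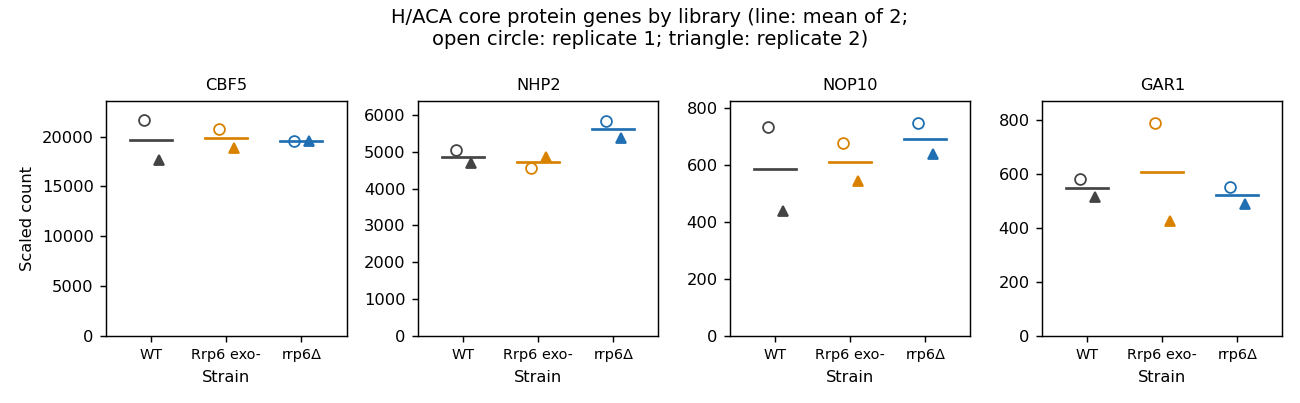
Scaled counts of the genes of the 4 H/ACA core proteins in each library, with a line at the mean of the 2 libraries of a strain. The WT libraries overlap with those of both mutants in *CBF5*, *NOP10* and *GAR1*, and both rrp6Δ libraries of *NHP2* are above the other 4.

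Genes that serve the particle or share its chemistry were counted as a list. The list of 16 held 7 genes for assembly and cap formation (*SHQ1*, *NAF1*, *RVB1*, *RVB2*, *TAH1*, *PIH1* and *TGS1*) and 9 for stand-alone pseudouridine synthases (*PUS1*, *PUS2*, *DEG1*, *PUS4*, *PUS5*, *PUS6*, *PUS7*, *RIB2* and *PUS9*). limma without the block called 0 of 16 in rrp6Δ against WT, Rrp6 exo- against WT and rrp6Δ against Rrp6 exo- (0.175%, 0.112% and 0.0159% of all genes). At an unadjusted p under 0.05 there were 2, 1 and 0 in the same order, where 16.6%, 17.0% and 5.46% of all genes were. With the block it called 0 of 16 in rrp6Δ (11.5% of all genes) and 1 of 16 (6.25%) in Rrp6 exo- (12.7% of all genes), which was *PUS2*, a mitochondrial tRNA pseudouridine synthase, and was higher. *PUS2* was at 525 and 462 in the WT libraries, 704 and 607 in those of Rrp6 exo-, and 642 and 525 in those of rrp6Δ (0.41 ± 0.16 SE in Rrp6 exo-, blocked limma adjusted p = 0.042, 0.29 without the block). Medians of the 16 were 0.08, 0.15 and -0.02 on the log2 scale.

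Transcripts that run past a snoRNA gene can enter its neighbour on the same strand, and 14 of the 29 snoRNA genes had such a neighbour within 1000 bases. limma without the block called 0 of these 14 neighbours in each comparison (4, 3 and 2 at an unadjusted p under 0.05, where 16.6%, 17.0% and 5.46% of all genes were). With the block it called 2 of 14 (14.3%) in rrp6Δ, 1 (7.14%) in Rrp6 exo- and 0 between the mutants, beside 11.5%, 12.7% and 0.0319% of all genes. DESeq2 called 3 (21.4%) in rrp6Δ, 2 higher and 1 lower, and 2 (14.3%) in Rrp6 exo-, 1 higher and 1 lower. Of the genes with an adjusted p, 8.19% and 8.45% were called. The rrp6Δ libraries lay entirely above WT for 5 neighbours and entirely below for 3 (25.1% and 24.9% of all genes). Those of Rrp6 exo- did so for 5 and 2 (21.7% and 23.5% of all genes). Whether the neighbours differ from all genes was not tested. The 2 genes that limma called with the block, both higher, are given as values, followed by 1 neighbour that was lower in the mutants. *USE1*, a SNARE gene 287 bases downstream of snR82, was at 1037 and 894 in the WT libraries, 1421 and 1263 in those of Rrp6 exo-, and 1557 and 1521 in those of rrp6Δ. All mutant libraries of *USE1* were above WT, at 0.68 ± 0.12 SE in rrp6Δ and 0.48 ± 0.12 in Rrp6 exo- (blocked limma adjusted p = 0.0082 and 0.018, 0.13 and 0.17 without the block), while snR82 itself was called lower in rrp6Δ. *MAD1*, a spindle checkpoint gene 889 bases downstream of snR10, was at 2755 and 2587 in the WT libraries, 3179 and 2845 in those of Rrp6 exo-, and 3316 and 3800.4 in those of rrp6Δ, with 0.41 ± 0.11 in rrp6Δ (0.036 with and 0.18 without the block). *RPS14A*, 390 bases downstream of snR189, was at 21891 and 21285 in the WT libraries, 16650 and 18129 in those of Rrp6 exo-, and 18332 and 16531 in those of rrp6Δ. All mutant libraries of *RPS14A* were below WT, and limma with the block did not call it. The medians of the 14 neighbours were 0.02, 0.05 and 0.002.

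Members were also grouped by what the annotation says they guide, leaving out snR30 and snR10, which act in rRNA processing, and snR81, which has U2 positions. The 6 snoRNAs with 18S positions alone had a median log2 fold change of 0.36 in rrp6Δ and -0.05 in Rrp6 exo- against WT. The 16 with 25S and no 18S positions, of which snR43 has a position in the small rRNA of the large subunit as well, had -0.07 and -0.26, and the 4 with both had 0.75 and 0.13. With the block the 18S guides held 3 higher and 0 lower calls in rrp6Δ, and the 25S guides 3 higher and 4 lower (5.43% of all genes higher and 6.04% lower). In Rrp6 exo- the 18S guides held 2 higher and 1 lower, and the 25S guides 0 and 4 (5.7% and 7.04% of all genes). The 27 snoRNAs outside introns had 0.09 and -0.18, and the 2 in introns -0.89 and -1.21. These medians describe the groups and were not tested.

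Level and length are given beside the fold changes. The 10 scarcest snoRNAs per kb over all libraries had a median log2 fold change of 0.64 in rrp6Δ, with 5 higher and 2 lower calls with the block. The middle 9 had -0.09 (1 higher and 3 lower) and the 10 most abundant -0.03 (2 higher and 1 lower), where 5.43% of all genes were called higher and 6.04% lower. In Rrp6 exo- the medians were 0.08, -0.55 and -0.25 in the same order, with 4 higher and 2 lower, 0 and 5, and 0 and 0 calls (5.7% and 7.04% of all genes). Across the 29 genes, which share their libraries, the fold change ran against gene length (Spearman rho = -0.51 in rrp6Δ and -0.50 in Rrp6 exo-, Pearson r = -0.36 and -0.22), where all 5818 matched genes gave rho of -0.09 and 0.05 and the 31 C/D snoRNA genes described below -0.74 and -0.20. The part of level or length in the results was not tested.

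The box C/D snoRNAs, which guide 2′-O-methylation through other proteins, were measured in the same libraries. Of 47 listed C/D snoRNA genes 31 were in the table. Their median log2 fold change was 1.33 in rrp6Δ and 0.002 in Rrp6 exo- against WT, beside -0.03 and -0.24 for the 29 H/ACA genes. limma called 2 and 1 of the 31 without the block (0.175% and 0.112% of all genes). With it, rrp6Δ gave 12 higher (38.7%) and 1 lower (3.23%) of the C/D genes beside 8 (27.6%) and 6 (20.7%) of the H/ACA genes, where 5.43% and 6.04% of all genes were called. Rrp6 exo- gave 7 (22.6%) and 4 (12.9%) beside 4 (13.8%) and 7 (24.1%), where 5.7% and 7.04% of all genes were called. The 2 lists were not tested against each other.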

How the data were processed

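Total RNA of 6 libraries was ribosome-depleted and sequenced as stranded paired-end reads. RNA integrity numbers ran from 6.1 to 8.9, with no value given per library, and the part of RNA quality in the results was not tested. The authors aligned reads with STAR to sacCer3, processed alignments with Picard (version 1.124), counted reads per gene with HTSeq (version 0.5.3, R64 annotation) and deposited DESeq-scaled counts, a signal in which each count is divided by the library's size factor. The strand setting of the counting is not given in the sources used here. Values in each library were whole multiples of 1 read (100.0% within 0.01), so reads could be recovered. Depth was 34.2 M to 39.5 M reads per library. Intervals from reads would cover counting error only, since they leave out the spread between clones. The authors describe no marking of PCR copies. Clones are separate samples. Without the replicate block, limma p-values rest on the spread between clones of a strain, pooled over all libraries in the fit. With the block, the difference shared by the replicate numbers is removed first, and p-values rest on the spread that remains.

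Strains were compared by limma (version 3.58.1 in R 4.3.3) after taking log2 of the scaled count plus 1. A single fit held the 6 libraries and strain alone, with a mean-variance trend, Benjamini-Hochberg adjustment over all 6277 genes and a threshold of 0.05. Fold changes are on this scale, with its standard error. Genes needed a summed scaled count of 10, and the lowest sum was 14.4. The replicate numbers were read as pairing the libraries, because the differences between replicates 2 and 1 correlated across genes in each pair of strains (r = 0.55, 0.59 and 0.46), and values with the replicate block stand beside those without it. edgeR (version 4.0.16) and DESeq2 (version 1.42.0) were run on recovered reads as alternatives, after tests on simulated data. The simulated data held no difference between the replicate numbers, so those tests cannot set fits with the block against fits without it. Other alternatives were pseudocounts of 0.5 and 10, a mean of 10 per library, no minimum, other scalings, no trend, 4 libraries only, and each library left out. The members and lists were chosen with earlier results of these data known. Values by library are given for the core protein genes, snR30, snR10, the intron-encoded snoRNAs, members called by limma with or without the block and, per comparison, the 3 largest rises and falls without overlap. *USE1*, *MAD1*, *RPS14A* and *PUS2* were named after their values were seen, as was *RRP6* as a check of the labels.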

Additional observations from a re-analysis of the deposited data

Results flagged for a closer look

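snR83, the second highest H/ACA snoRNA per kb in WT and a guide for 18S positions 1290 and 1415, lay on opposite sides of WT in the mutants. Its scaled counts were 144447 and 148924 in the WT libraries, 98247 and 139689.9 in those of Rrp6 exo-, and 172099 and 156745 in those of rrp6Δ. Both rrp6Δ libraries were above and both Rrp6 exo- libraries below those of WT (0.16 ± 0.18 SE and -0.32 ± 0.18 on the log2 scale), a difference of 0.49 between the mutants with a limma adjusted p of 0.88 without and 0.25 with the block. No fit of all 6 libraries called it.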

How the results depend on the processing

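The counts of called H/ACA snoRNA genes depended on the treatment of the replicate pairing. In rrp6Δ against WT, limma called 0 without and 14 with the replicate block, edgeR 15 with it and DESeq2 10, and leaving out 1 library with the block gave 9 and 7 without WT replicate 1 and 2, 21 and 20 without Rrp6 exo- replicate 1 and 2, and 0 without either rrp6Δ library (a fit chosen after seeing the data, in which a lone library is assumed to vary like the others). In Rrp6 exo- against WT the counts were 11 with the replicate block, 10 in edgeR with it, 8 in DESeq2, 1 after rescaling to the same total, and 8 and 9 (WT), 19 and 19 (Rrp6 exo-) and 11 and 11 (rrp6Δ) with the block and replicate 1 or 2 of a strain left out. Between the mutants DESeq2 called 2 (0.717% of all genes), and the calls with the block changed with the library left out. For the 16 assembly and synthase genes, edgeR with the block called 1 in rrp6Δ (11.4% of all genes). In Rrp6 exo- the replicate block in limma and in edgeR called 1 each (12.7% of all genes in both). Without the block, leaving out 1 library gave 0 in every list and comparison.

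The median over the 29 snoRNAs in rrp6Δ was 0.13 after rescaling to the same total, a scaling that moved the median of all genes to 0.16 (0.12 in Rrp6 exo-). With 1 library left out it ran from -0.079 to 0.13 in rrp6Δ, from -0.31 to -0.10 in Rrp6 exo- and from 0.0070 to 0.41 between the mutants. Of 864 values of single genes under the alternatives, 766 kept their direction and side of the threshold, 70 passed it (in blocked fits, DESeq2 or, once, the same total) and 28 changed sign. In rrp6Δ, *CBF5* was 0.15 at the same total, 0.046 at the same upper quartile, 0.0011 in edgeR and 0.0085 in edgeR with the block, and *GAR1* was 0.081 at the same total. In Rrp6 exo-, snR10 was 0.11 at the same total, 0.020 at the same upper quartile, 0.011 in edgeR, 0.0066 in edgeR with the block and 0.0026 in DESeq2, and at the same total snR30 was 0.0030 and *NHP2* 0.065. With 1 library left out, *CBF5* ran from -0.15 to 0.15, *NOP10* from -0.086 to 0.66 and *GAR1* from -0.16 to 0.017 in rrp6Δ. In Rrp6 exo- the ranges were -0.23 to 0.23 for snR10, -0.41 to 0.19 for snR30, -0.13 to 0.17 for *CBF5*, -0.100 to 0.011 for *NHP2*, -0.27 to 0.47 for *NOP10* and -0.36 to 0.53 for *GAR1*. The causes were not tested. Depth was lowest for 2 members, since snR36 and snR80 rested on fewer than 200 reads per library.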
